A study of Mus musculus with 12 samples.

Results

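The genes described here encode the pore-forming and auxiliary subunits of potassium channels, as far as their mouse symbols start with Kcn. The inward rectifier gene Kcnj13 was left out of the set beforehand and is not counted below. Of 93 protein-coding genes of the family that were considered, 84 had a mean of at least 10 normalized counts in the cortex table or in the hippocampus table, out of 55487 gene rows in each table. They comprise 29 alpha subunits of voltage-gated channels, 9 silent Kv subunits and 12 auxiliary subunits of voltage-gated channels. The rest are 12 inward rectifiers, 11 two-pore channels and 11 genes of calcium- or sodium-activated channels. This last class was set by gene family, not by what opens the channel, and includes Kcnu1 (Slo3). The other 9 (Kcna7, Kcne1, Kcnj1, Kcnj15, Kcnk15, Kcnk16, Kcnk18, Kcnmb3 and Kcnv2) were below that mean in both tables. Kcnk7, with means of 6.17 in cortex and 10.2 in hippocampus, and Kcne3, with 3.76 and 12.8, lay just inside it. Kcnk15, with 8.21 and 1.06, and Kcnv2, with 6.34 and 8.07, lay just outside.

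Potassium channels let potassium leave the cell, which brings the membrane back to rest after a spike and sets how easily a neuron fires again. Voltage-gated (Kv) channels are tetramers of alpha subunits and open on depolarization. Silent subunits form no channel alone and join Kv2 tetramers, while Kv beta and KChIP proteins bind Kv1 and Kv4 channels. Inward rectifiers pass current best near rest and include the G-protein-gated GIRK channels and the astrocytic Kcnj10 channel. Two-pore channels carry leak current, and calcium- or sodium-activated channels shape the afterhyperpolarization that follows spikes.

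RNA was sequenced from the cerebral cortex and hippocampus of C57BL/6 mice, with 3 libraries in each of the 4 groups. The mice were either mTert wild type (WT) or mTert knockout (KO), labelled G1 and Homo, read here as homozygous. Tert encodes the catalytic subunit of telomerase. The labels give no age, sex, treatment or construction of the allele, and they leave unsaid whether each library is a different mouse. The p-values below therefore measure the spread between these libraries, which may be technical. The targeted gene Tert had 206, 105 and 241 normalized counts in WT cortex and 0 in each KO cortex library. In hippocampus it had 147, 184 and 128 in WT and 0, 6.31 and 0 in KO, so every library stood on the side its label gives.

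Libraries were deep, with 68424934 to 77972013 reads recovered per cortex library and 72401909 to 86639113 per hippocampus library. WT cortex library 2 stood apart: its chi-square per gene was 103 against library 1 and 95.5 against library 3, where those 2 differed by 9.72. Of 12 hippocampal field markers none was at 0 in a whole group in either tissue. Their WT sums were 78792 to 93205 in hippocampus and 33384 to 35439 in cortex. Of 12 pan-neuronal markers none was at 0 in a whole group in either tissue. WT hippocampus library 3 lay midway between libraries 1 and 2, which had a chi-square per gene of 49.5 against each other. Over the 282 genes with a mean of at least 1000 counts in which libraries 1 and 2 differed by more than 0.5 on the log2 scale, library 3 sat at a median of 0.509 of the way from library 1 to library 2. In 74.1% of these genes it was between 0.4 and 0.6 of the way. The same share was 40.0% of 70 genes for library 3 of KO cortex and 33.3% of 54 for library 3 of KO hippocampus. For library 3 of WT cortex it was 1.6% of 1378. There library 3 lay near library 1, at a median of 0.0697 of the way to library 2. Whether library 3 of a group holds RNA that is independent of libraries 1 and 2 was not tested, so hippocampal counts are also given without both libraries 3.

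Levels of different genes were compared as WT normalized counts per kb of merged exon. Kcnab2, a Kv beta subunit, had the highest level of the 84 genes in both tissues, 5985 ± 481 per kb in cortex and 11692 ± 1161 per kb in hippocampus (SD, n = 3). Among alpha subunits, the axonal Kcna2 had the highest mean in cortex, 2868 ± 253 per kb. The inward rectifier Kcnj4 had 3653 ± 124 per kb in cortex and 2613 ± 72.4 in hippocampus, where Kcnj10 (2676 ± 207) was level with it within the spread. Kcnk1 led the two-pore genes with 2718 ± 291 and 2878 ± 82.2 per kb, and Kcnf1 the silent subunits with 1931 ± 239 and 797 ± 23.2. Of the calcium- or sodium-activated genes, Kcnt1 was highest in cortex (1647 ± 280) and the BK channel gene Kcnma1 in hippocampus (1217 ± 79.8). The lowest silent subunit was Kcng3, with 49.3 and 67.0 per kb.

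In the hippocampus 38 of the 83 Kcn genes tested changed in the knockout at an adjusted p below 0.05 (limma with Benjamini-Hochberg adjustment over all genes tested). Of these, 17 rose and 21 fell, or 20.5% and 25.3%, where 14.1% of all 22337 genes were called higher and 15.1% lower. The median log2 fold change of the 83 genes was 0.06, against 0.02 for all genes. The classes held different counts of rises and falls in this fit, and class counts in other fits are given below. Among alpha subunits 12 of 28 fell and 1 rose, and among calcium- or sodium-activated genes 4 of 11 fell. Among auxiliary subunits 6 of 12 rose and 1 fell, among silent subunits 4 of 9 rose and 1 fell, and among inward rectifiers 4 of 12 rose and 1 fell. Two-pore genes split evenly, with 2 of 11 in each direction. All KO libraries lay above or below all WT libraries in 48 of the 83 genes (57.8%), 24 in each direction, against 45.8% of all genes.

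**Figure D1:**
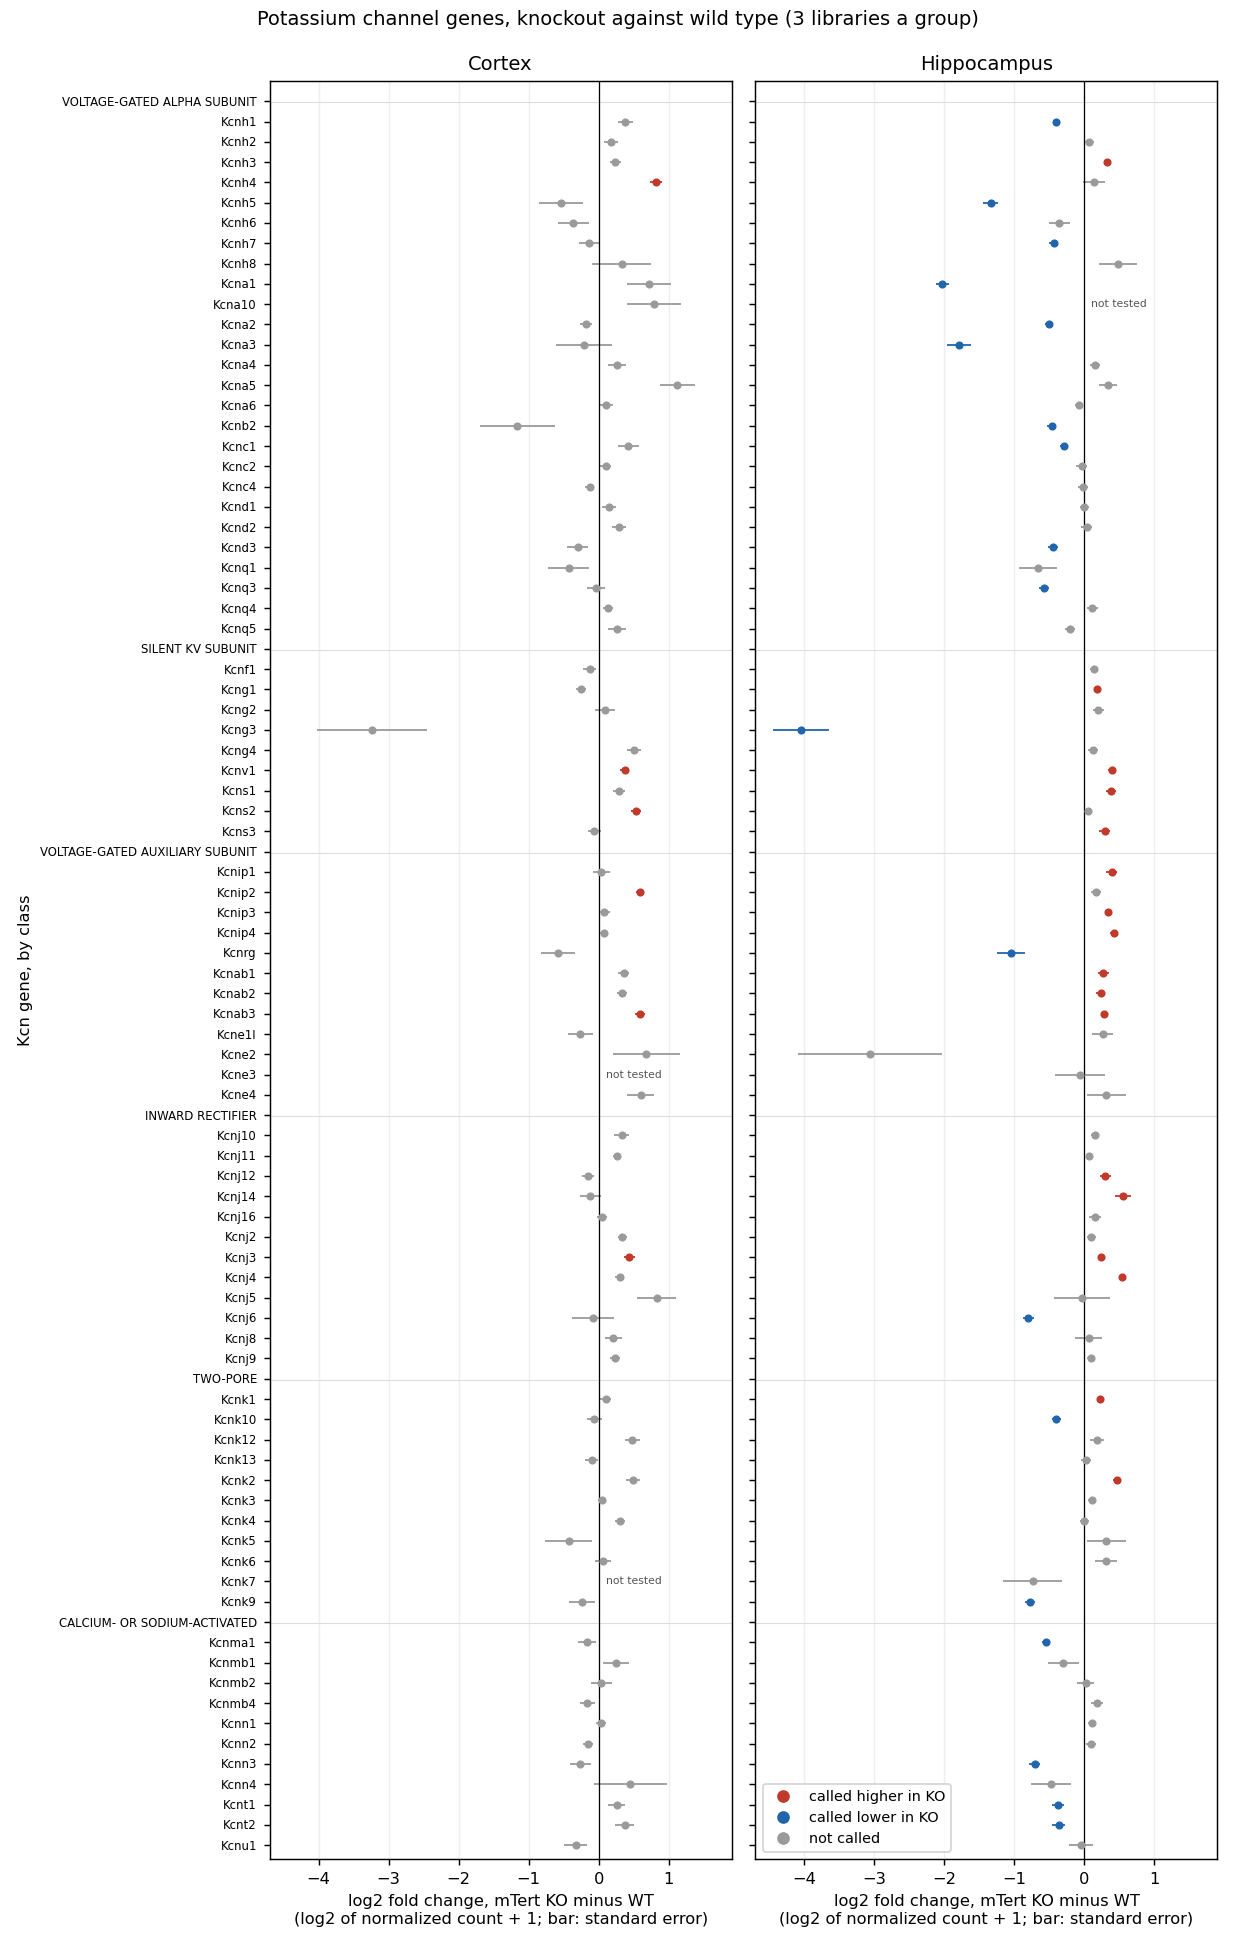
Log2 fold change (KO minus WT, with standard error) of 81 Kcn genes in cortex (left) and hippocampus (right), by class, coloured by call. Blue points, called lower, are most numerous among hippocampal alpha subunits, while red points, called higher, are 6 in cortex and 17 in hippocampus.

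The steepest hippocampal fall was that of Kcng3, a silent subunit that modifies Kv2 channels. Its normalized counts were 199, 241 and 234 in the WT libraries and 10.7, 7.22 and 25.1 in the KO libraries. The groups stood far apart, with a log2 fold change of -4.05 ± 0.40 (SE, adjusted p = 0.000371). Kcna1, the Kv1 subunit of axons, had 6308, 7557 and 7000 in WT and 1846, 1530 and 1728 in KO. It fell by 2.03 ± 0.09 on the log2 scale (adjusted p = 1.77e-05). The highest KO library held far fewer counts than the lowest WT library. Kcna3, a Kv1 subunit best known from lymphocytes and microglia, had 375, 496 and 416 in WT and 124, 99.2 and 150 in KO, a log2 fold change of -1.79 ± 0.17 (adjusted p = 0.000347). Kcnh5, an EAG channel, went from 493, 551 and 459 to 213, 201 and 180, or -1.34 ± 0.11 (adjusted p = 0.000152). Kcnrg, whose protein hinders Kv1 assembly, went from 90.6, 84.6 and 65.6 to 35.1, 39.7 and 38.7, or -1.05 ± 0.20 (adjusted p = 0.00747). For each of these 5 genes the lowest WT library was above the highest KO library. The first 4 were also called without both libraries 3, and Kcnrg was not (log2 fold change -1.21, adjusted p = 0.0574).

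**Figure D2:**
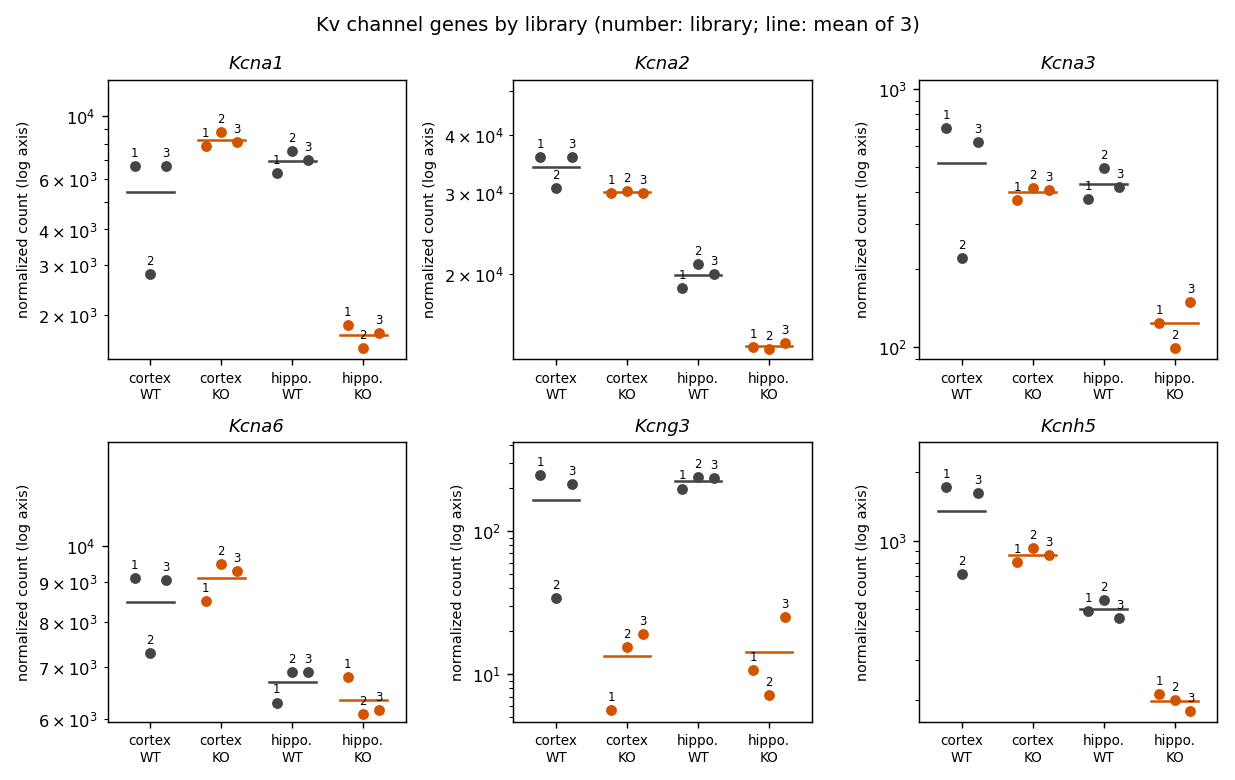
Normalized counts (log axis) of 6 Kv genes in the 12 libraries, numbered by library, with the mean of 3 as a line. The KO hippocampus libraries of Kcna1, Kcna3, Kcng3 and Kcnh5 lie below all WT hippocampus libraries, those of Kcna6 overlap them, and WT cortex library 2 is the lowest WT cortex library of all 6 genes.

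Genes next to Kcna1 and Kcna3 gave other values. Kcna1 lies at chr6:126640397-126646384 on the minus strand (GRCm38), between Kcna5 at chr6:126532551-126535412 and Kcna6 at chr6:126708329-126740674. Kcna6 had 6301, 6897 and 6887 in WT hippocampus and 6789, 6087 and 6166 in KO (log2 fold change -0.08 ± 0.06, adjusted p = 0.357). Kcna5 had 153, 133 and 163 against 175, 207 and 188 (0.34 ± 0.13, adjusted p = 0.0875). Kcna3 lies at chr3:107036169-107038070, next to Kcna2 at chr3:107101146-107115005 and Kcna10 at chr3:107183056-107195721, all on the plus strand. Kcna2, the usual partner of Kcna1 in axonal channels, fell from 18607, 20998 and 19982 to 13840, 13694 and 14163. Its log2 fold change was -0.51 ± 0.05 (adjusted p = 0.00035), against -1.79 for Kcna3. Kcna10, at 7.12, 8.56 and 0 in WT and 10.7, 11.7 and 12.6 in KO, was under the filter in hippocampus.

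The promoters of 3 of the falling genes are shown to let their sequence be compared, with that of Kcnh4, a relative of Kcnh5 that was called higher in cortex and not called in hippocampus. They were picked after the values were seen. Each is 300 bases from RefSeq (GRCm38.p6), 250 before and 50 after the annotated start, read 5′ to 3′ on the gene's strand. Capitals mark the GC box GGGCGG and the E-box CACGTG, searched on both strands (CCGCCC is the GC box reversed). Kcng3 is at chr17:83631846-83632145 and Kcnh5 at chr12:75177283-75177582, both on the minus strand. Kcna3 is at chr3:107035912-107036211 on the plus strand, and Kcnh4 at chr11:100759729-100760028 on the minus strand.
Kcng3: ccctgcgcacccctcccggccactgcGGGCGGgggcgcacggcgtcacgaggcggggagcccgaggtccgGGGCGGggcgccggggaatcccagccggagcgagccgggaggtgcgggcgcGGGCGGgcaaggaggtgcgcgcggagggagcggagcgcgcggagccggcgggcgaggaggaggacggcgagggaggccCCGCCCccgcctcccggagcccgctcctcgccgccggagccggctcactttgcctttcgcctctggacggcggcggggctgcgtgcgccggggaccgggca
Kcna3: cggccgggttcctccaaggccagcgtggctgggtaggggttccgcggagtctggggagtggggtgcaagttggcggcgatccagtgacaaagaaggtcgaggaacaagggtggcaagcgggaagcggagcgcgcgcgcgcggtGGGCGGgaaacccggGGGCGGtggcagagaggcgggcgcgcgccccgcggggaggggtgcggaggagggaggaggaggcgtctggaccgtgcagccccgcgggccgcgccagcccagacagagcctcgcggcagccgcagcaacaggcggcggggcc
Kcnh5: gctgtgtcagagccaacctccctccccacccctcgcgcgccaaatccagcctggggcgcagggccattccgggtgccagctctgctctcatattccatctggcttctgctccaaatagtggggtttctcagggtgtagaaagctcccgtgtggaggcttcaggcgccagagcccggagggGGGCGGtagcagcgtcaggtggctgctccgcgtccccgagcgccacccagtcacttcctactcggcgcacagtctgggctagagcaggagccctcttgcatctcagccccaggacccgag
Kcnh4: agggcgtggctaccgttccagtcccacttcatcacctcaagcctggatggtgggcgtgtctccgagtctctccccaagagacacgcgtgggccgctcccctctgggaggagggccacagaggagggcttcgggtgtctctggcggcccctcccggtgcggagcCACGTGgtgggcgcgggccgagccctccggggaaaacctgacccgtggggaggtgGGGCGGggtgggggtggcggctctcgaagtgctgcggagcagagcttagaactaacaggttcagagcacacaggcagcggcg

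The GC box occurs 4 times in the Kcng3 window, 2 times in that of Kcna3 and once each in those of Kcnh5 and Kcnh4, and the E-box once in that of Kcnh4 alone. Of the 86 RefSeq promoters of the 61 Kcn genes with an entry, 51.2% hold a GC box and 8.14% an E-box, against 35.7% and 7.15% of all 32851 promoters of this length. These shares were not adjusted for CG content, which was higher in Kcn promoters than in all promoters. Genes that fell and a gene that did not both hold the GC box. A match to these letters is a description of the sequence and not a bound site.

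Other hippocampal falls of alpha subunits had values nearer 0. Kcnh1, an EAG channel, had 5399, 5454 and 5549 in WT and 4135, 4244 and 4072 in KO, with no overlap, a log2 fold change of -0.40 ± 0.04 (adjusted p = 0.000275). Kcna2, Kcnb2, Kcnc1, Kcnd3, Kcnh7 and Kcnq3 fell with values between -0.58 and -0.29, of which the Kcnc1 call was lost without WT library 3 (adjusted p = 0.0534). Kcnq3, a subunit of the M-channel that damps repetitive firing, fell from 21669, 26271 and 24720 to 15991, 15747 and 16588 (-0.58 ± 0.07, adjusted p = 0.000957). Kcnb2, a delayed rectifier, fell from 1875, 2133 and 2052 to 1476, 1417 and 1462 (-0.47 ± 0.06, adjusted p = 0.0011). The groups of both genes did not overlap. The 1 alpha subunit that rose was Kcnh3, an ELK channel gene that overlaps Mcrs1 on the opposite strand. It had 8614, 8501 and 8317 in WT and 10957, 10851 and 10067 in KO, a log2 fold change of 0.32 ± 0.04 (adjusted p = 0.0017).

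Of the calcium- or sodium-activated genes, Kcnma1, the BK channel of spike repolarization, fell from 19408, 22096 and 20457 to 13952, 13887 and 14328 (-0.55 ± 0.05, adjusted p = 0.000298), a call that was lost with the trend along exonic length removed (-0.07, adjusted p = 0.178, described below). Kcnn3, an SK channel gated by calcium through calmodulin, fell from 1512, 1701 and 1510 to 1032, 970 and 884 (-0.71 ± 0.08, adjusted p = 0.000584). The sodium-activated Kcnt1 and Kcnt2 fell by 0.38 ± 0.09 and 0.37 ± 0.09 (adjusted p = 0.0146 and 0.0206). Both calls depended on single libraries. That of Kcnt1 was lost without WT library 3, KO library 2 or KO library 3 (adjusted p of 0.057 to 0.0621), and that of Kcnt2 without WT library 3, KO library 1 or KO library 2 (0.0717 to 0.0795). The beta subunit Kcnmb2, the shortest gene of the class, had 188, 188 and 169 in WT and 172, 181 and 202 in KO, which overlap.

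Auxiliary subunits had the highest share of rises. All 3 Kv beta genes rose in hippocampus. Kcnab3 went from 2118, 2080 and 2179 to 2603, 2544 and 2602 (0.28 ± 0.04, adjusted p = 0.00241), Kcnab1 rose by 0.27 ± 0.08 (adjusted p = 0.0305) and Kcnab2 by 0.23 ± 0.07 (adjusted p = 0.0453). The Kcnab1 call was lost without WT library 3 or any 1 KO library (adjusted p of 0.0575 to 0.103), and the Kcnab2 call without any library but WT library 2 (0.0573 to 0.142). Of the KChIP genes, whose calcium-binding products carry Kv4 channels to the surface, 3 of 4 rose. Kcnip4 had 2871, 3095 and 2964 in WT and 3809, 3987 and 4177 in KO (0.42 ± 0.05, adjusted p = 0.000932). Kcnip3 rose by 0.33 ± 0.04 (adjusted p = 0.0012) and Kcnip1 by 0.39 ± 0.08 (adjusted p = 0.00984), while Kcnip2 was at 0.16 ± 0.07 (adjusted p = 0.122). The Kv4 alpha subunits they bind did not rise by call: Kcnd3 fell by 0.45 ± 0.07 (adjusted p = 0.00274), and Kcnd2 was at 0.03 ± 0.08 (adjusted p = 0.793).

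Silent subunits other than Kcng3 had positive values. Kcnv1 rose from 1673, 1735 and 1812 to 2196, 2290 and 2367 (0.39 ± 0.05, adjusted p = 0.00146), and Kcns1 from 650, 681 and 692 to 931, 834 and 875 (0.38 ± 0.07, adjusted p = 0.00491). Kcns3 rose by 0.29 ± 0.08 (adjusted p = 0.0335) and Kcng1 by 0.18 ± 0.05 (adjusted p = 0.0263). The calls of both were lost without any 1 of 4 libraries, with adjusted p up to 0.107 for Kcns3 (WT libraries 1 and 3, KO libraries 1 and 3) and 0.094 for Kcng1 (WT libraries 1 and 3, KO libraries 2 and 3).

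Inward rectifiers moved both ways within one channel type. Kcnj3 and Kcnj6 encode GIRK subunits, which open when G-protein-coupled receptors such as the GABA-B receptor are active. Kcnj6 had 5574, 6978 and 6016 in WT hippocampus and 3495, 3516 and 3627 in KO, with no overlap, a log2 fold change of -0.80 ± 0.08 (adjusted p = 0.000344). Kcnj3 rose from 10765, 11950 and 11320 to 12874, 13807 and 13618 (0.24 ± 0.05, adjusted p = 0.0101). Another neuronal GIRK gene, Kcnj9, had 6825, 6890 and 6794 against 7868, 6667 and 7366, which overlap. The Kir2-type rectifier Kcnj4 rose from 5785, 5474 and 5608 to 7871, 8289 and 8268 (0.53 ± 0.04, adjusted p = 0.000118). Its relatives Kcnj14 and Kcnj12 rose by 0.55 ± 0.12 and 0.30 ± 0.08 (adjusted p = 0.0126 and 0.0294). The Kcnj14 call was lost without WT library 3 (adjusted p = 0.0544), and the Kcnj12 call without WT library 3 or any 1 KO library (up to 0.111).

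In the two-pore class, the mechanically gated Kcnk2 rose from 3681, 3833 and 3749 to 4900, 5482 and 5093 (0.46 ± 0.05, adjusted p = 0.000601), and Kcnk1 rose by 0.22 ± 0.04 (adjusted p = 0.00826). The acid-sensitive Kcnk9 fell from 8835, 10202 and 9503 to 5909, 5260 and 5440 (-0.78 ± 0.07, adjusted p = 0.000171). Kcnk10, a close relative of Kcnk2, fell by 0.40 ± 0.06 (adjusted p = 0.0032). Kcnk2 and Kcnk10 thus changed in opposite directions. Kcnk7, the shortest and weakest gene of the class, had 18.3, 12.8 and 8.46 in WT and 8.79, 7.22 and 5.8 in KO, which overlap.

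Without both libraries 3, which leaves 2 libraries a group, 6 Kcn genes were called higher and 14 lower in hippocampus, where 0.627% of all genes were called higher and 6.08% lower. All 20 were among the 38. The 6 were Kcnh3, Kcnip3, Kcnip4, Kcnj4, Kcnk2 and Kcnv1, and the 14 were Kcna1, Kcna2, Kcna3, Kcnb2, Kcnd3, Kcng3, Kcnh1, Kcnh5, Kcnh7, Kcnj6, Kcnk9, Kcnma1, Kcnn3 and Kcnq3. By class, the fit without both libraries 3 called 9 of 28 alpha subunits lower and 1 higher. It called 2 of 11 calcium- or sodium-activated genes lower, and 2 of 12 auxiliary subunits higher and 0 lower. Among 9 silent subunits, 12 inward rectifiers and 11 two-pore genes, 1 each rose and 1 each fell. With 1 library left out at a time, the count of rises lay between 11, without WT library 3, and 23, without WT library 2. The count of falls lay between 18 and 23. The shares of all genes called in these leave-one-out fits are not reported here.

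Kcn genes range from 1.54 kb of merged exon (Kcne1l) to 17.0 kb (Kcnma1), with a median of 4.49 kb against 4.3 kb for tested protein-coding genes, and the hippocampal values varied with that length. All 6 Kcn genes above 12 kb fell, among them Kcnb2, Kcnh7, Kcnk9, Kcnma1 and Kcnq3, with a median log2 fold change of -0.57. In the same bin 71.0% of 865 protein-coding genes fell, with a median of -0.46. Between 8 and 12 kb, 7 of 8 Kcn genes fell, and 41.0% of protein-coding genes. The exception was Kcnab1, at 8.59 kb the longest auxiliary gene, which rose. Between 2 and 4 kb, 9 of 27 Kcn genes rose and 1, Kcng3, fell, where 23.6% of protein-coding genes rose and 4.64% fell. Up to 2 kb the median was -0.74 for 7 Kcn genes and 0.06 for protein-coding genes, with Kcna3 and Kcnrg called lower. Across the 83 Kcn genes the log2 fold change and log2 length had Spearman's rho of -0.33 and Pearson's r of -0.05, and across 15967 protein-coding genes rho of -0.27 and r of -0.16. In cortex rho was -0.07 and r -0.10 for Kcn genes, and 0.19 and 0.10 for protein-coding genes. Genes share libraries, so these are descriptions and carry no p.

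**Figure D3:**
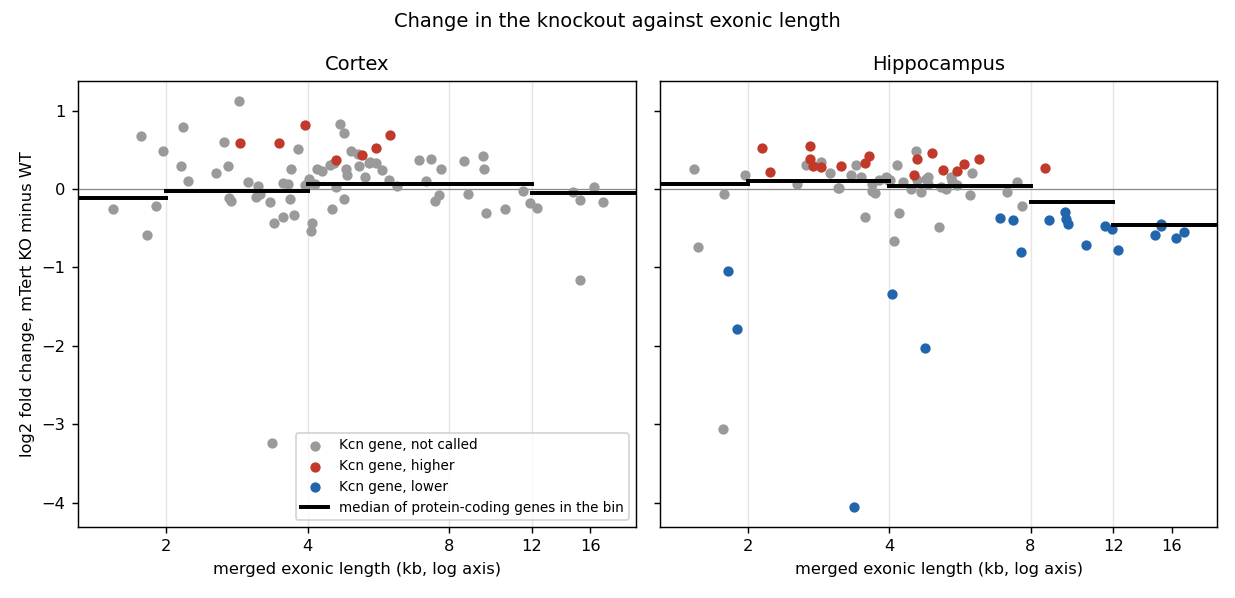
Log2 fold change of Kcn genes against merged exonic length (log axis, kb) in cortex and hippocampus, with the median of protein-coding genes in each length bin as a black line. In hippocampus the 6 genes above 12 kb lie between -0.78 (Kcnk9) and -0.44 (Kcnh7), where the line is at -0.46. Kcng3, Kcna1, Kcna3, Kcnh5 and Kcnrg lie far below the line of their own bins.

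When the trend along exonic length was removed from each library, 15 Kcn genes were called higher and 15 lower in hippocampus, where 13.5% and 12.1% of all genes were. All 15 falls were among the 21. Among the 6 falls that were lost were Kcnb2, Kcnc1, Kcnh7, Kcnma1 and Kcnt1, with lengths from 9.46 to 17.0 kb. Kcnma1 moved from -0.55 to -0.07 and Kcnh7 from -0.44 to -0.01. Kcnq3 stayed called at -0.17 (adjusted p = 0.0449) and Kcnk9 at -0.46. The steepest falls kept their values: Kcng3 was at -4.11, Kcna1 at -2.07, Kcna3 at -1.82, Kcnh5 at -1.39 and Kcnrg at -1.08. Of the rises, 14 of 17 stayed, and Kcng1, Kcnj12 and Kcns3 were lost. By class, 8 of 28 alpha subunits were then lower and 2 higher, and 2 of 11 calcium- or sodium-activated genes were lower. Among 12 auxiliary subunits 6 rose and 1 fell, and among 9 silent subunits 2 rose and 1 fell. Among 12 inward rectifiers 3 rose and 1 fell, and among 11 two-pore genes 2 rose and 2 fell. What lies behind the length trend was not tested.

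In the cortex 7 of the 82 Kcn genes tested rose (8.54%) and none was called lower, where 1.28% of all 21945 genes were called higher and 0.661% lower. For falls, limma gave 4 Kcn genes at an unadjusted p below 0.05, edgeR called 0 and DESeq2 2. The median log2 fold change was 0.11, against -0.01 for all genes. Kcnh4, an ELK channel gene, had 1894, 1584 and 1871 in WT and 3030, 3276 and 3123 in KO. Its log2 fold change was 0.82 ± 0.09 (adjusted p = 0.00847), the highest among the 7. Kcnip2, the KChIP of Kv4 channels in brain and heart, went from 6767, 7430 and 6832 to 10643, 10368 and 10616 (0.59 ± 0.06, adjusted p = 0.00763). Kcnab3 went from 6601, 7344 and 6722 to 11003, 9854 and 10293 (0.59 ± 0.07, adjusted p = 0.0134). In each of these 3 genes the KO libraries were all above the WT libraries.

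The silent subunit Kcns2 went from 1995, 1835 and 2042 to 2843, 2846 and 2781 (0.53 ± 0.07, adjusted p = 0.0167), and Kcnv1 from 4497, 3995 and 4198 to 5518, 5622 and 5263 (0.37 ± 0.07, adjusted p = 0.0446). Kcnj3 went from 9973, 8569 and 9205 to 11773, 13589 and 12361 (0.44 ± 0.08, adjusted p = 0.0477). Kcnj3, Kcnv1 and Kcnab3 also rose in hippocampus, while Kcnh4, Kcns2 and Kcnip2 were at 0.14, 0.05 and 0.16 there and were not called. All 7 cortex calls were lost without any 1 KO library (adjusted p of 0.0573 to 0.223), and 2 and 1 genes were called higher without WT libraries 1 and 3. Without both libraries 3, limma called 0 Kcn genes in cortex.

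**Figure D4:**
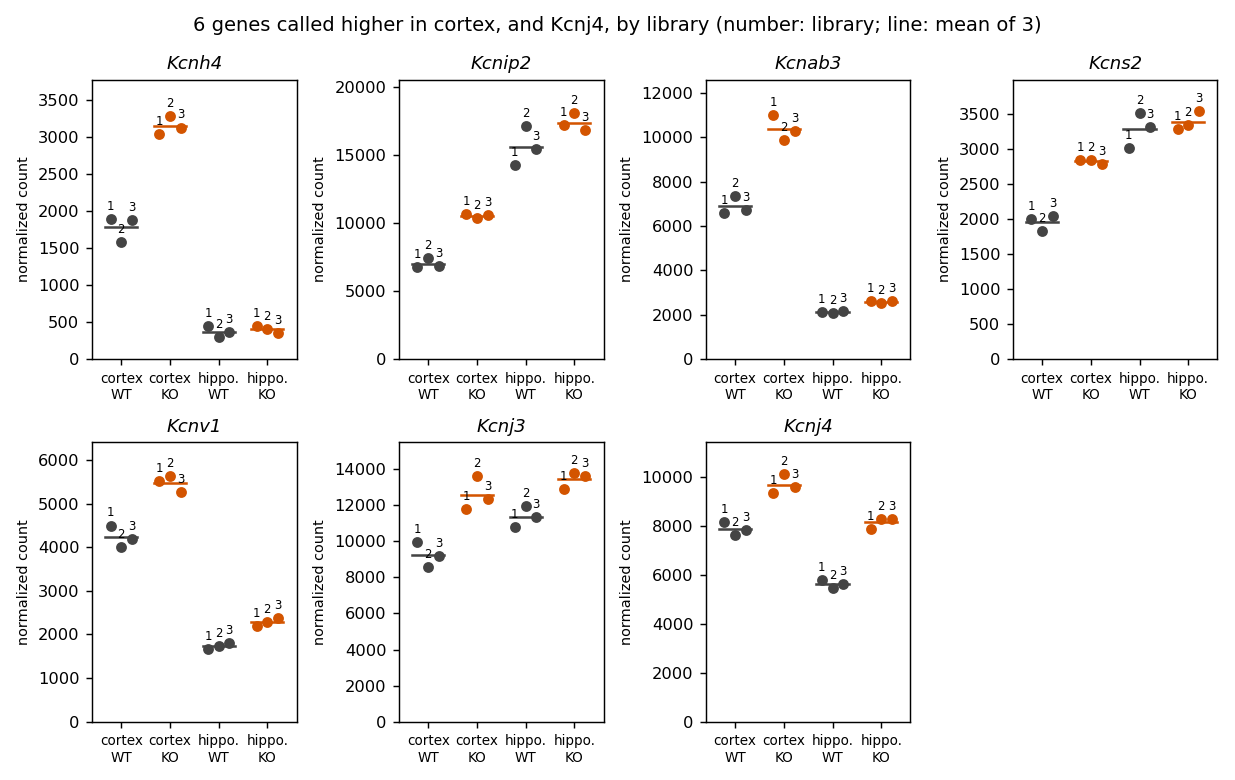
Normalized counts of 6 Kcn genes called higher in cortex (Kcnh4, Kcnip2, Kcnab3, Kcns2, Kcnv1 and Kcnj3), and of Kcnj4, in the 12 libraries, with the mean of 3 as a line (axes start at 0). KO cortex libraries lie above all WT cortex libraries in each panel, and in hippocampus the groups separate for Kcnab3, Kcnj3, Kcnj4 and Kcnv1.

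Cortex counts depended on WT library 2, which was the lowest of the 3 WT libraries in 55 of the 82 genes. The same share over all genes was not taken, so this is not a result about Kcn genes. Without it, 27 Kcn genes were called higher and 17 lower, where 11.0% and 10.3% of all genes were, and all 7 rises were among the 27. The WT libraries left in that fit, 1 and 3, had a chi-square per gene of 9.72, where pairs of KO cortex libraries had 7.19 to 11.2. Whether WT cortex libraries 1 and 3 are independent was not tested. Kcng3 had 247, 34.1 and 215 in WT cortex and 5.64, 15.5 and 19.3 in KO. With all libraries its log2 fold change was -3.24 ± 0.79 (adjusted p = 0.0985), and without WT library 2 it was -4.15 (adjusted p = 0.000548). Every KO library of Kcng3 was thus below every WT library in both tissues. Kcna3 had 704, 222 and 625 against 372, 415 and 407, and Kcnh5 had 1719, 713 and 1620 against 804, 925 and 862. In both, WT library 2 was below all KO libraries and the other WT libraries above them. Without it they were called lower at -0.74 and -0.95 (adjusted p = 0.000956 and 7.1e-05). Kcnb2 had 2605, 1592 and 2329 in WT and 1557, 1514 and 364 in KO, and here KO library 3 stood apart (log2 fold change -1.16 ± 0.54, adjusted p = 0.307). Groups did not overlap for 42 of the 82 genes (51.2%), 35 with KO above and 7 with KO below, against 28.3% of all genes.

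WT cortex library 2 was below both other WT libraries by more than 1.5-fold in 7 of the 82 Kcn genes tested. It was as low in 2224 of all 21945 genes tested in cortex. In hippocampus 6 of them fell (Kcna1, Kcna3, Kcng3, Kcnh5, Kcnj6 and Kcnk9) and Kcna5 was not called. Of all 2078 genes that were as low in that library and tested in hippocampus, 55.8% were called lower there, so a fall was common among such genes. Across 81 Kcn genes, its log2 difference from the mean of WT libraries 1 and 3 and the hippocampal log2 fold change had r = 0.60 and rho = 0.52, against 0.29 and 0.36 across 15554 protein-coding genes. No library is shared between these 2 quantities, but all values of 1 gene share its length and sequence. The difference was -2.72 for Kcng3, -1.57 for Kcna3, -1.26 for Kcna1, -1.22 for Kcnh5 and -1.18 for Kcnj6. Kcna1 had 6706, 2791 and 6698 in WT cortex and 7868, 8799 and 8107 in KO. In this gene library 2 was low and the KO cortex libraries were high. The Tert level of library 2, 105, was the lowest of the 6 WT libraries and above every KO library. What sets WT cortex library 2 apart was not tested.

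**Figure D5:**
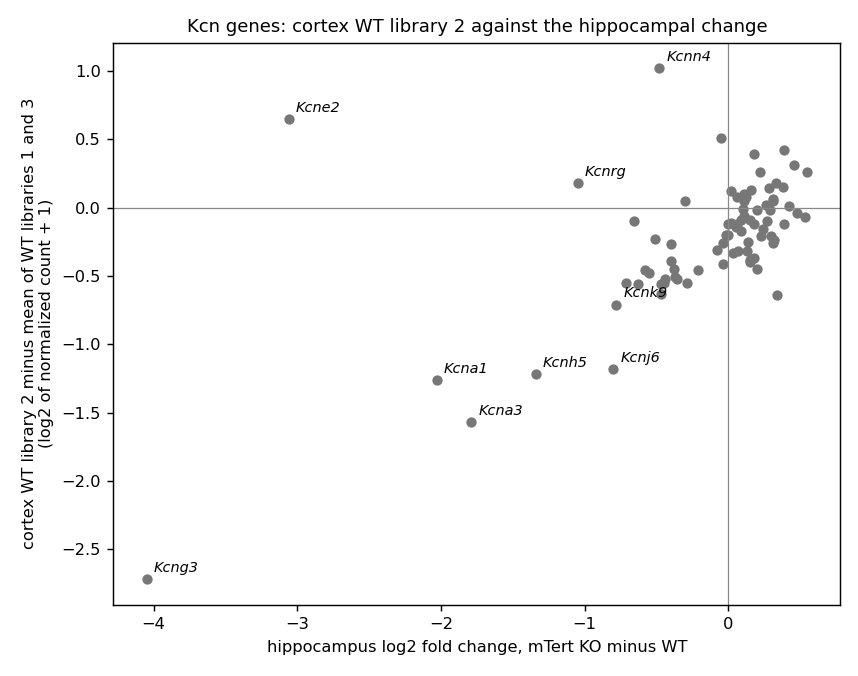
For 81 Kcn genes, the log2 difference of WT cortex library 2 from the mean of WT cortex libraries 1 and 3 (vertical) against the hippocampal log2 fold change, KO minus WT (horizontal). Kcng3, Kcna3, Kcna1, Kcnh5 and Kcnj6 are low on both axes, while Kcne2 and Kcnrg are low on the horizontal axis alone.

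Whether the knockout effect differed between the tissues was tested with the interaction term of 1 fit over the 12 libraries. The fit took all 12 as independent, and the labels do not say whether both tissues came from the same mice. Of 81 Kcn genes 6 were called (7.41%), where 3.02% of all genes were. Among those called, Kcna1 had the largest difference, -2.75 ± 0.37 on the log2 scale (hippocampus minus cortex, adjusted p = 0.00453). It fell in hippocampus, and in cortex all KO libraries were above all WT libraries (0.72 ± 0.32, adjusted p = 0.287). Kcne2 had a larger difference, -3.74 ± 1.27, that was not called (adjusted p = 0.12). Without WT cortex library 2 the Kcna1 difference was -2.33 (adjusted p = 4.87e-06) and the cortex value 0.30 (adjusted p = 0.00284). Kcnh1 differed by -0.77 ± 0.12 (adjusted p = 0.0103), with cortex values of 8663, 6766 and 9049 in WT and 10269, 10943 and 10327 in KO. Its hippocampal groups were also apart, in the other direction. Kcns2 and Kcnip2 differed by -0.48 ± 0.09 and -0.43 ± 0.09 (adjusted p = 0.022 and 0.0351), and Kcng1 and Kcnip4 by 0.43 ± 0.08 and 0.35 ± 0.08 (adjusted p = 0.0202 and 0.0386). Without WT cortex library 2, 20 Kcn genes were called, where 9.24% of all genes were. Without both libraries 3 the Kcna1 difference was -2.98 with an adjusted p of 0.233, and limma called 0 Kcn genes for the interaction.

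Partner proteins of these channels were followed as a list of 32 genes chosen with the results known (31 tested in each tissue). In hippocampus 8 rose and 7 fell (25.8% and 22.6%, where 14.1% and 15.1% of all genes did), with a median log2 fold change of 0.04. Among those that rose were Gnb5 and Rgs7, a G-protein beta subunit and its RGS partner that speed the closing of GIRK channels. Gnb5 went from 6238, 6347 and 6141 to 7529, 7483 and 7552 (0.27 ± 0.03, adjusted p = 0.00129), and Rgs7 rose by 0.27 ± 0.05 (adjusted p = 0.00449). Vapa, which anchors Kv2 channels to the endoplasmic reticulum, rose by 0.30 ± 0.05, and Hcn2, a pacemaker channel, by 0.25 ± 0.05 (adjusted p = 0.00299 and 0.00814). Lrrc26, a BK gamma subunit, fell steeply, from 273, 371 and 320 to 80.1, 80.3 and 104 (-1.85 ± 0.17, adjusted p = 0.000233). Ank3, the scaffold of the axon initial segment, which holds Kcnq3, fell by 0.91 ± 0.17 (adjusted p = 0.00726), and Adam22, which sits with Kv1 channels, by 0.50 ± 0.05 (adjusted p = 0.000324). At 34.8 and 14.3 kb these are long genes, and with the length trend removed they were at -0.09 and -0.10 and not called. Akap5, a scaffold of Kcnq channels, fell by 0.50 ± 0.08 (adjusted p = 0.00287) and was at -0.45 with the trend removed. In cortex limma and edgeR called 0 of the 31, DESeq2 called 1, and at an unadjusted limma p below 0.05 there were 7 higher and 1 lower.

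Marker genes of several cell types moved with the groups. In bulk tissue, fewer cells of a type and less RNA per cell cannot be told apart. Choroid plexus markers bear on Kcne2, a MinK-related subunit known from choroid plexus epithelium. Kcne2 had 2035, 83.5 and 1010 in WT hippocampus and 86.9, 49.6 and 66.7 in KO, a log2 fold change of -3.06 ± 1.03 that was not called (adjusted p = 0.06). The summed level of the 12 choroid plexus markers was 364335, 13311 and 188725 in WT and 19204, 9680 and 13998 in KO, with none at 0 in a whole group, and 1 of the 12 was called lower. Kcne2 and these markers were high in the same WT libraries 1 and 3. The sums of these 12 markers in cortex went the other way, 1649 to 1901 in WT and 2709 to 11841 in KO, with 1 called higher. In cortex 16 of 19 striatal neuron markers were called higher, as were the 7 Kcn genes. Their sums were 36330 to 39969 in WT and 72819, 107786 and 89793 in KO, with none at 0. Among KO cortex libraries the striatal sum was highest in library 2, as were Kcnh4, Kcnj3, Kcns2 and Kcnv1. Kcnab3 and Kcnip2 were lowest in that library. In hippocampus 10 of 12 microglial markers rose, with sums of 26534 to 31563 in WT and 37801 to 39191 in KO, while Kcna3 fell. Of 9 interneuron markers tested in hippocampus 5 rose and 2 fell, with sums of 55949 to 68008 in WT and 65722 to 67951 in KO, which overlap, and Kcnc1 fell beside them. Of 12 pan-neuronal markers 7 rose and 1 fell in hippocampus, where 17 Kcn genes rose and 21 fell. The sums of these markers were 909712 to 1070282 in WT and 1083119 to 1119365 in KO. In cortex 1 of 12 was called higher, with sums of 908949 to 941090 in WT and 1034542 to 1044153 in KO. Oligodendrocyte markers had 5 of 12 higher and 1 lower in hippocampus, with sums of 424151 to 430084 in WT and 459591 to 533022 in KO. In cortex none of these 12 was called by limma, and the sums were 347513 to 354824 in WT and 398522 to 430595 in KO. Astrocyte markers had 5 of 12 higher and 2 lower in hippocampus, with sums that overlap, and endothelial and mural markers 2 of 12 higher in cortex, with sums of 25174 to 26928 in WT and 30116 to 33380 in KO. The part of these cell types in the Kcn results was not tested.

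Several of the genes named share their place with another annotated gene, and no source used here says whether reads were counted by strand. On the opposite strand lie Gm26794 at Kcnj3, Kcnab3os at Kcnab3, Gm41505 at Kcnj6, Gca at Kcnh7, 4930519K11Rik at Kcnma1, Kcnd3os at Kcnd3, 4930590L20Rik at Kcnt2, A330015K06Rik at Kcnab1, A430027H14Rik at Kcnk2, Gm45875 at Kcnk1, Gm36937 at Kcnj9, Gm26673 at Kcna6, Gm34821 at Kcne3, Gm19531 at Gnb5, and 5730480H06Rik and Gm20700 at Kcnip4. Gm16334 overlaps Kcnab2 on the same strand. For these genes reads of the overlapping gene may be included. Kcng3, Kcna1, Kcna3, Kcnh5, Kcnrg, Kcnh4, Kcnip2, Kcns2 and Kcnv1 overlap no other annotated gene.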

How the data were processed

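Gene expression was measured by RNA sequencing in 12 libraries. The deposited values are a signal per gene, gene counts divided by 1 size factor per library and called normalized counts in the deposited files' names. Per the submitters' processing notes, the tools included STAR, HTSeq and DESeq2 and the build was GRCm38; no source used here gives their versions, the strand setting or the annotation. In each library all values were whole multiples of 1 step (within 0.001; steps 0.902 to 1.07), and 100% of values divided by it gave whole reads. For WT cortex libraries 1 and 2 the step is so close to 1 that taking it as 1 read could not be checked. On these reads edgeR (4.0.16) and DESeq2 (1.42.0) served as alternatives, and edgeR called 7 Kcn genes in cortex and 37 in hippocampus.

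Of 55487 rows, 55227 matched GENCODE vM21 (GRCm38), which gave symbols, coordinates and merged exonic lengths. Genes with a mean of at least 10 were tested within each tissue with limma (3.58.1, R 4.3.3) with a trended prior on log2(value + 1), which understates changes of low genes, and a gene was called where its p, adjusted by Benjamini-Hochberg over all genes tested, was below 0.05. The tests were first run on simulated data with known changes. Alternatives were the pseudocount, the filter, quantile scaling, a constant prior, removal of the length trend (lowess per library), the replicate block and leaving out libraries. Leaving out both libraries 3 was chosen after seeing the data. The Kcn genes, gene lists, promoters and tests were chosen with earlier results of these data known. Genes were named by a rule: calls in cortex, up to 4 per class and direction in hippocampus, the highest, longest and shortest of each class, the strongest interactions, those nearest the mean of 10 and up to 4 partners per direction. Kcna5, Kcna6, Kcna10, Kcnb2, Kcnc1, Kcnd2, Kcnd3, Kcne2, Kcnh7, Kcnj9 and Kcnq3 fall outside it and were named after their values were seen, as relatives, neighbours or outlying values. Values of some Kcn genes that enter the counts are not reported here.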

Additional observations from a re-analysis of the deposited data

Results flagged for a closer look

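For 6 Kcn genes the change in the knockout differed between hippocampus and cortex by the interaction test. As log2 fold change in hippocampus minus that in cortex, the differences were -2.75 for Kcna1, -0.77 for Kcnh1, -0.48 for Kcns2 and -0.43 for Kcnip2, and 0.43 for Kcng1 and 0.35 for Kcnip4. Kcna1 was called in each leave-one-out fit, with an adjusted p of at most 0.0191, and Kcnh1 with at most 0.0384. The calls of Kcng1, Kcns2, Kcnip2 and Kcnip4 were lost without any 1 of 6, 6, 7 and 8 of the 12 libraries. Without both libraries 3 limma called 0 of the 6, with adjusted p of 0.233 to 0.422. All 6 were called without WT cortex library 2, with values of -2.33, -0.64, -0.43, -0.48, 0.47 and 0.35 in the order given.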

How the results depend on the processing

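The log2 fold changes of called Kcn genes kept their sign in all alternatives: 112 values of 7 genes in cortex, 608 of 38 genes in hippocampus and 132 of 6 genes for the interaction. Their side of the threshold was kept in 56, 537 and 89 of these. The count of genes called higher in cortex was 7. It was 4 with no filter on low values, 0 with a constant prior variance, 16 with the length trend removed, 18 with DESeq2, 0 with both libraries 3 left out, and 0 to 27 with 1 library left out. The count of genes called lower in cortex was 0, against 1 with the length trend removed, 2 with DESeq2 and 0 to 17 with 1 library left out. In hippocampus the count of rises was 17, and 6 with both libraries 3 left out and 11 to 23 with 1 library left out; the count of falls stayed within 1.5 times of 21 throughout. The interaction count was 6, against 4 with no filter and 4 with a constant prior variance, 11 with quantile normalization, 11 with the length trend removed, 23 with DESeq2, 0 with both libraries 3 left out and 2 to 20 with 1 library left out. The cause of these shifts was not tested, beyond the fewer libraries in the fits that leave some out. For most alternative fits the share of all genes called is not reported here. Shifts in these counts are therefore not read as results about Kcn genes.

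Same-numbered WT and KO libraries did not deviate together (r of -0.0255, 0.00474 and -0.0649 in cortex and -0.0266, 0.0915 and -0.023 in hippocampus), so the numbers were not taken as pairs. With the replicate number as a block, 0 Kcn genes were called higher in cortex, 16 rose and 23 fell in hippocampus, and 1 was called for the interaction. The shares of all genes called in this fit are not reported here.

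Signs changed only in genes that were not called, among the values given in the text. Kcnj6 in cortex was 0.09 without both libraries 3 and ranged from -0.47 to 0.14 with 1 library left out, and Kcna3 in cortex ranged from -0.74 to 0.09. Kcns2 in hippocampus ranged from -0.01 to 0.10 and Kcnh4 from -0.02 to 0.28. Depth limits the weakest genes, such as Kcnk7 and Kcne3 with fewer than 20 counts in each library. The number of libraries, 3 a group, limits the precision elsewhere.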
